A study of Mus musculus with 12 samples.

Results

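The DNA damage response and repair genes described here are 49 genes given by name, among 24254 genes in the deposited expression table, and each of the 49 was found there. They cover damage-signalling kinases and their checkpoint partners, the p53 family, break recognition, homologous recombination, end joining, crosslink repair, mismatch repair, single-strand break repair and nucleotide excision repair. RNA was sequenced from mouse oocytes before they resume meiosis, at the germinal vesicle stage. There were 12 libraries of 80 oocytes each, and the C57BL/6 donors, 3 weeks old, had received PMSG, a gonadotropin that drives follicle growth (5 IU, 46 h before). All 3 groups, of 4 libraries each, carried the gene trap in Marf1, so none had an untouched Marf1 locus. GT oocytes carried the trap alone, GTWT oocytes had also been injected with mRNA that encodes wild type MARF1, and for GTD272 that mRNA carried the D272 mutation. Both injected groups were held for 48 h in milrinone, which blocks meiotic resumption. The labels name neither a culture period nor a control injection for GT, so injection, culture and protein cannot be told apart in a comparison with GT. Whether the 4 libraries of a group have separate animals behind them is not said either, so every p-value rests on a spread between libraries that could be technical.

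An oocyte stays arrested in meiotic prophase for most of its life with its genome open to damage, and it must keep that genome intact for the embryo. ATM and ATR are the kinases that sense broken or single-stranded DNA, and CHK2 and CHK1 are the kinases they activate. In mouse oocytes the p53 relative p63 carries out the removal of damaged cells, through a pathway that CHK2 switches on. Repair proteins are also stored in the egg as RNA and protein, because the zygote repairs the incoming sperm DNA before its own genome is active. MARF1 is a ribonuclease that mouse oocytes need to complete meiosis, and D272 lies in its catalytic domain.

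Marf1 itself was measured first, as a check of the labels. Its level in FPKM, the fragments mapped to a gene scaled by its length and by library size, was 1.60 ± 0.242 in GT, 9.12 ± 0.806 in GTD272 and 17.5 ± 5.08 in GTWT (SD, n = 4), so the injected groups also differed from each other in the amount of this RNA. The relative depth of the libraries, read from the steps of low FPKM values, was 55.4% to 100% of the deepest, with GT replicate 1 the shallowest, and 11167 to 11364 genes per library reached an FPKM of 1. All 12 oocyte markers checked were present, with summed levels of 10515 to 10996 FPKM in GT, 11432 to 11924 in GTD272 and 11088 to 11683 in GTWT. Of 7 blood and 9 theca or stroma markers 0 passed the filter on low values, and each of these sums stayed at or under 1.92 FPKM. Of 15 granulosa and cumulus markers 4 passed, and Lhcgr, Ptx3 and Slc38a3 were listed at 0 in every library. The sum of these 15 was 142 to 150 FPKM in GT, 127 to 137 in GTD272 and 120 to 129 in GTWT, without overlap between GT and either injected group. Most of it was Nr5a2, with means of 125, 109 and 103 FPKM in GT, GTD272 and GTWT, and Kitl came next, at 14.4, 12.9 and 12.7. Without Nr5a2 the sums overlapped, at 20.2 to 25.0, 18.05 to 23.6 and 18.6 to 25.9. The oocyte sum thus differed between GT and the injected groups, and the granulosa sum did so only with Nr5a2 included. Of the oocyte markers, Bmp15, Dppa3 and Mos had lower means in both injected groups than in GT, and the others had higher means. The part of these differences in the results below was not tested. In pooled cells, fewer cells with a transcript and less of it per cell cannot be told apart.

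The members spanned more than 3 orders of magnitude in level. Chek1 (CHK1, mean over the 12 libraries 168 FPKM) and Msh6 (104 FPKM) were the only members above 100 FPKM, 22 members lay between 10 and 100, 21 between 1 and 10, and 4 below 1. Of the 49, 46 reached an FPKM of 1 in at least 4 libraries and were tested, and Lig1, Fancd2 and Fanca did not. The tested members had a median level of 10.9 FPKM, against 11.6 for all 11687 genes tested. Their coefficient of variation over the 12 libraries had a median of 13.4%, against 15.5% for all genes tested. In the table, 14 members share a locus with another gene, among them Rad9a with Ppp1ca and Msh6 with Fbxo11. Use of strand is not stated, so reads of such neighbours may not be fully separated.

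**Figure D1:**
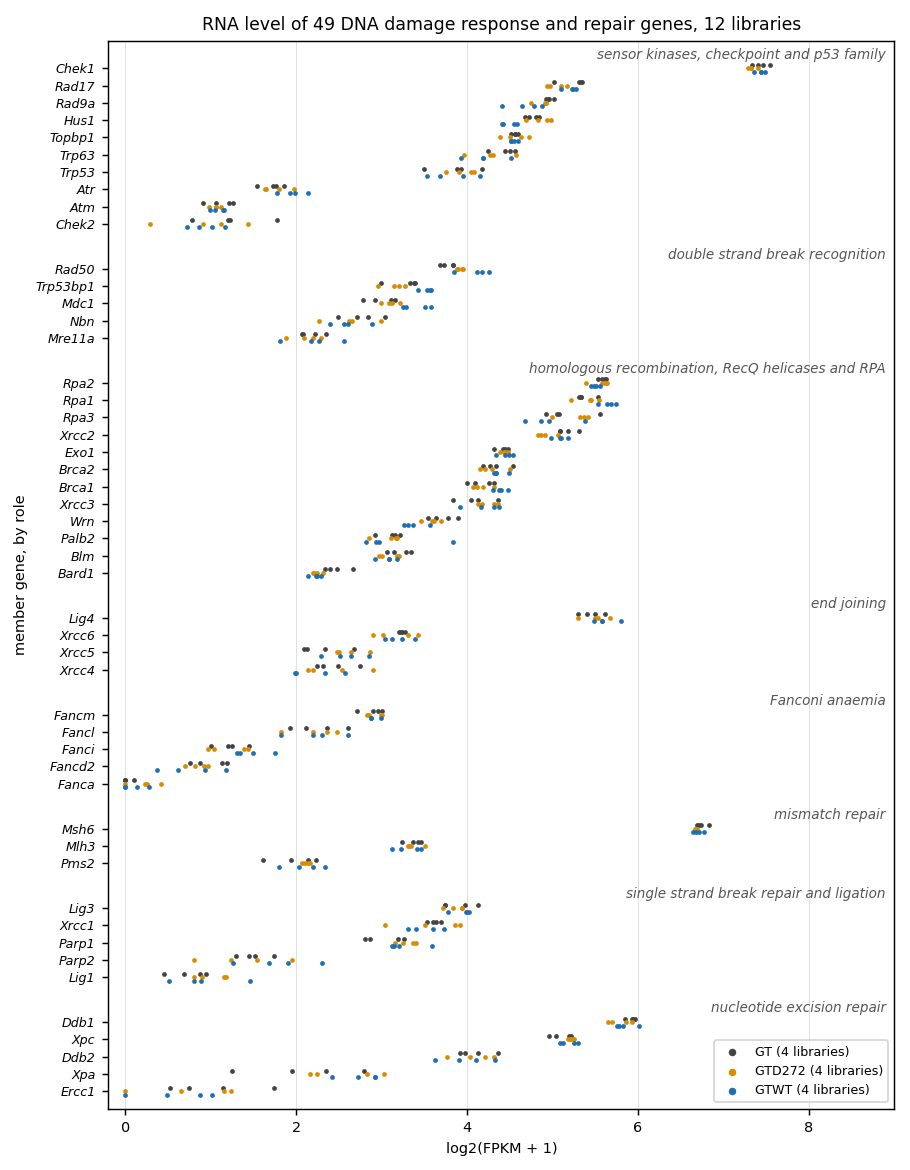
Level of each member, as log2(FPKM + 1) on the horizontal axis, by role, with 1 point per library (grey GT, orange GTD272, blue GTWT). Chek1 and Msh6 stand to the right, Fanca lies at or near 0, and for most members the points of the 3 groups lie on top of each other.

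Setting GTWT against GT asks which of these transcripts differed after wild type MARF1 mRNA had been supplied. Most did not pass the test. At an adjusted p under 0.05 from limma over all 11687 genes, 3 of 46 tested members rose (Rad50, Mdc1 and Rpa1) and 3 fell (Hus1, Rad9a and Wrn), while 40 did not pass. This is 13.04% of the members, and 16.6% of all genes tested were called in this comparison (6.14% higher, 10.5% lower), so the share of members called was no higher than the background. At an unadjusted p under 0.05 there were 10 members, against 30.9% of all genes, and the authors' deposited table calls 7 (18.6% of all genes tested here), 5 of them shared with limma. In 3 members all GTWT libraries lay above all GT libraries (9.32% of all genes tested) and in 3 all lay below (12.6%). The median difference of the tested members was -0.02 on the log2(FPKM + 1) scale, against -0.01 for all genes, and the median size of a difference was 0.12 against 0.17. None of the 46 reached 1 on this scale in any comparison. For 31 members the 95% interval of the difference lay within 0.5 of 0 on both sides, and for 44 within 1, the exceptions being Xpa and Ercc1.

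**Figure D2:**
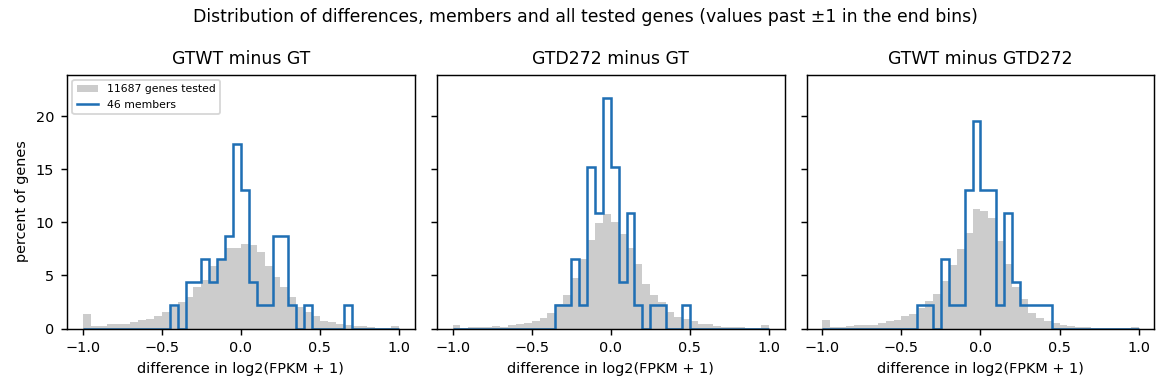
Share of genes, in percent, by difference in log2(FPKM + 1), for all 11687 genes tested (grey) and the 46 tested members (blue line), in each of the 3 comparisons. The members lie in the middle of the distribution of all genes, with medians of -0.02, -0.03 and 0.01.

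Upstream sequence is shown for 2 of the 6 called members, Hus1, which fell, and Mdc1, which rose, from the RefSeq promoter table (GRCm38.p6). Each run starts 250 bases before the start used in that table and stops at the edge of the whole RefSeq gene record, which left out the last 45 bases for Hus1 and 3 for Mdc1. Runs read 5′ to 3′ on the gene's strand. Capitals mark the GC box (GGGCGG or its reverse complement CCGCCC) and the CCAAT box (CCAAT or its reverse complement ATTGG), which do not overlap here.
Hus1, chr11:9011237-9011441, minus strand: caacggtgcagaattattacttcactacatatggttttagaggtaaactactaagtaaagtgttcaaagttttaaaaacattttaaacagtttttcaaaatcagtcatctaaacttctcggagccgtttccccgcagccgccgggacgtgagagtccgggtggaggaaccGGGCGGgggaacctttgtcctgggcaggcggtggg
Mdc1, chr17:35841248-35841494, plus strand: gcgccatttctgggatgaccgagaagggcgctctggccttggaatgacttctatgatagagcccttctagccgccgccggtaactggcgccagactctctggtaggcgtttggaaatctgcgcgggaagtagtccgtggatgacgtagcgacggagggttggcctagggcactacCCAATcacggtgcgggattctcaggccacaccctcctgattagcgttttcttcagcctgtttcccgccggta
The Hus1 stretch of 205 bases holds 1 GC box and 0 CCAAT boxes in these letters, and the Mdc1 stretch of 247 bases holds 1 CCAAT box and 0 GC boxes. In the first 205 bases of 32851 RefSeq promoter windows, 25.6% hold the GC box letters and 29.2% the CCAAT letters on either strand, and in the first 247 bases 32.4% and 33.7% do. These matches describe the sequence only.

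Checkpoint and p53 family genes came first. HUS1 and RAD9A, with RAD1, form the 9-1-1 clamp, a ring loaded at damaged DNA that helps ATR to activate CHK1. Hus1 (chromosome 11, 8993135 to 9011191, mm10) was at 27.6, 25.4, 24.5 and 27.0 FPKM in the 4 GT libraries, at 29.7, 30.5, 24.8 and 27.5 in GTD272 and at 20.4, 22.3, 23 and 20.2 in GTWT. Every GTWT library lay below every library of the other groups, whose values overlapped. The mean of GTWT was 82.2% of that of GT, a log2 difference of -0.27 (SE 0.08, limma adjusted p = 0.0291). Its adjusted p exceeded 0.05 without GT replicate 1 (0.0811), 2 (0.0506) or 4 (0.0688), and without GTWT replicate 1 (0.0724) or 4 (0.0769).

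Rad9a (chromosome 19, 4192172 to 4201603, mm10) was at 29.3, 29.8, 31.3 and 30.1 FPKM in GT, at 29.3, 29.1, 29.4 and 25.9 in GTD272 and at 28.5, 20.2, 26.5 and 23.9 in GTWT. All GTWT libraries lay below all GT libraries, and GTWT replicate 2 was the lowest. The log2 difference of -0.28 (SE 0.09, limma adjusted p = 0.0482) was close to the threshold, and the authors' deposited table gives a q-value of 0.182. That call was lost without any GT library (adjusted p = 0.0793 to 0.109), without GTD272 replicate 1, 2 or 3 (0.0576 to 0.0591), without GTWT replicate 2 (0.116) or 4 (0.103), without the filter on low values (0.0713), with only the 2 groups compared (0.0770), after quantile normalization (0.0710) and after rescaling by median ratios (0.0561). Ppp1ca, in the same locus, was at 31.2 ± 2.02 FPKM in GT and 30.0 ± 4.81 in GTWT (SD, n = 4). The remaining clamp subunit gene, Rad1, which was not among the members, was at 7.51 ± 1.26 FPKM in GT, 7.74 ± 2.32 in GTD272 and 9.61 ± 1.64 in GTWT and did not pass.

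The other checkpoint genes did not pass in GTWT against GT. Chek1 was at 173 ± 10.7 FPKM in GT and 171 ± 6.49 in GTWT (SD, n = 4), with a 95% interval of -0.12 to 0.10 for the log2 difference, among the narrowest of the members. Rad17, which loads the clamp, was at 37.3 ± 3.99 and 36.1 ± 1.93 FPKM, and Topbp1, which bridges the clamp to ATR, at 22.6 ± 0.594 and 22.3 ± 0.670. Unlike that of Chek1, the other kinase transcripts were scarce. Atr was at 2.31 ± 0.303 FPKM in GT, Atm at 1.17 ± 0.240 and Chek2 at 1.45 ± 0.716, with 2.90 ± 0.401, 1.12 ± 0.118 and 0.934 ± 0.255 in GTWT. Chek2 had a wide interval, -0.86 to 0.25, and its libraries ran from 0.223 to 2.44 FPKM. Trp63, which encodes p63, was at 20.7 ± 2.001 FPKM in GT, 18.6 ± 3.39 in GTD272 and 17.6 ± 3.11 in GTWT, and Trp53 at 13.8 ± 2.79, 14.5 ± 1.60 and 13.4 ± 2.78. Neither passed (intervals -0.53 to 0.06 for Trp63 and -0.38 to 0.29 for Trp53 in GTWT against GT).

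Of the 5 genes for recognition of DNA ends, 2 rose in GTWT and 0 fell, where 6.14% of all genes tested rose and 10.5% fell. The median difference of the 5 was 0.25 on the log2 scale, against -0.01 for all genes, and nothing particular to these genes was tested. RAD50, MRE11 and NBN make up the MRN complex, which tethers broken ends and activates ATM, while MDC1 and 53BP1 (Trp53bp1) gather at the chromatin around a break. Mdc1 (chromosome 17, 35841496 to 35859670, mm10) was at 5.88, 7.92, 7.63 and 6.58 FPKM in GT, at 8.25, 6.95, 7.68 and 7.49 in GTD272 and at 10.4, 10.9, 8.72 and 8.48 in GTWT. Each GTWT library lay above every library of both other groups, which overlapped. The mean in GTWT was 138% of that in GT, a log2 difference of 0.41 (SE 0.11, limma adjusted p = 0.0252), the largest among the called members. It was not called without GT replicate 1 (adjusted p = 0.0759) or 4 (0.0606), nor without GTWT replicate 1 (0.0668) or 2 (0.0757).

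Rad50 (chromosome 11, 53649517 to 53707319, mm10) was at 11.8, 13.3, 12.3 and 13.2 FPKM in GT, at 14.3, 13.8, 14.5 and 13.9 in GTD272 and at 17.04, 18.2, 13.4 and 16.3 in GTWT. GTWT replicate 3 was only just above the highest GT library, and the GTD272 libraries also lay above GT. The mean in GTWT was 128% of that in GT, a log2 difference of 0.33 (SE 0.09, limma adjusted p = 0.0248). This call was lost without GT replicate 1 (adjusted p = 0.0703) or 3 (0.0612), and without GTWT replicate 1 (0.0640), 2 (0.0741) or 4 (0.0550), and with only the 2 groups compared (0.0524). Its MRN partners did not pass: Mre11a was at 3.54 ± 0.432 FPKM in GT and 3.68 ± 0.984 in GTWT, and Nbn at 5.87 ± 1.08 and 5.17 ± 0.900 (SD, n = 4).

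Trp53bp1 did not pass in this fit (log2 difference 0.25, limma adjusted p = 0.137), while the authors' deposited table calls it (q = 0.0253). Its FPKM was 9.50, 9.10, 9.42 and 6.93 in GT, 8.22, 8.70, 6.78 and 7.86 in GTD272 and 10.5, 9.76, 10.8 and 10.9 in GTWT. The GTWT libraries lay above all others, by a small margin over GT replicate 1.

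Of the 12 genes for homologous recombination, RecQ helicases and RPA, 1 rose and 1 fell in GTWT, where 6.14% of all genes tested rose and 10.5% fell. Their median difference was -0.02 (all genes -0.01). RPA is the 3-subunit protein that coats single-stranded DNA. Rpa1, its largest subunit (chromosome 11, 75300257 to 75348383, mm10), was at 38.6, 45.4, 39.4 and 39.2 FPKM in GT, at 42.4, 45.7, 42.8 and 36.2 in GTD272 and at 45.3, 50.3, 48.6 and 52.5 in GTWT. GT replicate 2 reached the level of the lowest GTWT library, and the other GT libraries were lower. The mean in GTWT was 121% of that in GT, a log2 difference of 0.27 (SE 0.08, limma adjusted p = 0.0335). It was lost without GT replicate 1 (adjusted p = 0.0887), 3 (0.0790) or 4 (0.0762), and without GTWT replicate 2 (0.0759), 3 (0.0529) or 4 (0.0903). Rpa2 was at 47.0 ± 1.36 FPKM in GT and 44.3 ± 1.36 in GTWT, and Rpa3 at 35.1 ± 7.40 and 30.8 ± 6.87 (SD, n = 4), and neither passed.

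Wrn encodes the Werner syndrome RecQ helicase, which unwinds recombination and replication intermediates (chromosome 8, 33234371 to 33385527, mm10). Its FPKM was 13.8, 12.7, 11.4 and 10.7 in GT, 11.1, 11.99, 11.2 and 9.97 in GTD272 and 8.88, 8.58, 10.8 and 9.28 in GTWT. GTWT replicate 3 overlapped with GT replicate 4, and the other GTWT libraries were lower than all of GT. The mean in GTWT was 77.2% of that in GT, a log2 difference of -0.34 (SE 0.10, limma adjusted p = 0.0360). The call ended without GT replicate 1 (adjusted p = 0.106), 2 (0.0874) or 3 (0.0541), without GTWT replicate 1 (0.0824), 2 (0.0936) or 4 (0.0717), without the filter (0.0515), with only the 2 groups compared (0.0583) and after quantile normalization (0.0516). Blm, the Bloom syndrome helicase of the same family, was at 8.25 ± 0.818 FPKM in GT and 7.40 ± 0.597 in GTWT (SD, n = 4) and did not pass.

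**Figure D3:**
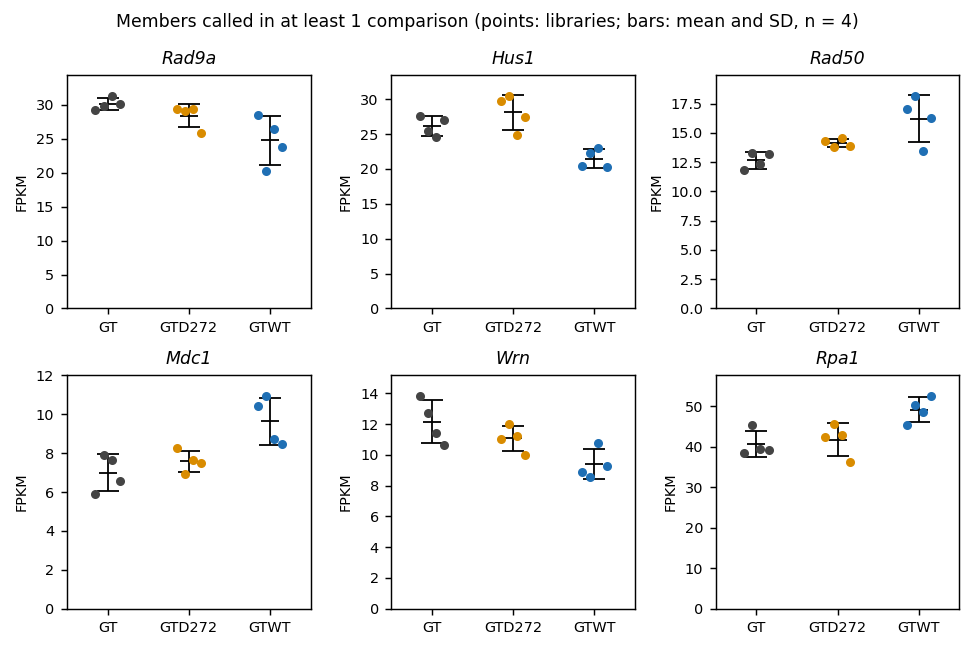
FPKM of the 6 members called in at least 1 comparison, by library (points), with the mean and SD of each group (bars, n = 4); each vertical axis starts at 0. GTWT is below both other groups without overlap for Hus1 and above both without overlap for Mdc1, while Wrn and Rpa1 overlap between GTWT and GT.

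The rest of the recombination genes did not pass. Brca1, whose protein opens the way for strand resection, was at 17 ± 1.83 FPKM in GT, 17.03 ± 1.38 in GTD272 and 19.96 ± 1.03 in GTWT (SD, n = 4; log2 difference 0.22 in GTWT against GT, limma adjusted p = 0.0972), and the authors' deposited table calls it (q = 0.0283). Bard1, its partner, was lower in level and differed the other way, at 4.56 ± 0.562, 3.73 ± 0.184 and 3.68 ± 0.196 FPKM (log2 difference -0.25, adjusted p = 0.141), with each library of the injected groups below each GT library. Brca2, which loads the strand-exchange protein, was at 19.2 ± 2.21 FPKM in GT and 19.6 ± 1.17 in GTWT, and Palb2, which links BRCA1 to BRCA2, at 7.63 ± 0.724 and 8.20 ± 3.42. Exo1, a resection nuclease, stayed between 18.9 and 22.1 FPKM in all 12 libraries. Xrcc2 and Xrcc3, paralogs of the strand-exchange protein, were at 34.9 ± 2.63 and 16.2 ± 2.63 FPKM in GT, and at 33.0 ± 1.90 and 17.4 ± 2.48 in GTWT.

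In the 5 remaining roles limma called 0 of 19 tested members in any of the 3 comparisons. Of all genes tested it called 16.6% in GTWT against GT, 2.95% in GTD272 against GT and 2.46% in GTWT against GTD272. In GTWT against GT 1 of these 19, Xpa, had an unadjusted p under 0.05 (30.9% of all genes). In the other comparisons, in the same order, 0 did (19.0% and 18.4%). The authors' deposited table calls 0 of the 19, against 18.6%, 6.31% and 5.22% of all genes tested. Msh6, which encodes a mismatch-binding protein, was the steadiest member, at 106 ± 4.80 FPKM in GT, 102 ± 0.856 in GTD272 and 103 ± 4.22 in GTWT (SD, n = 4), with an interval of -0.14 to 0.06 for GTWT against GT. Its neighbour in the locus, Fbxo11, was at 66.8 ± 2.17, 56.7 ± 4.24 and 56.0 ± 2.51 FPKM. Mlh3 and Pms2, which act after mismatch binding, were at 9.36 ± 0.714 and 2.99 ± 0.728 FPKM in GT.

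Of the end-joining genes Lig4, the ligase that seals the ends, was at 42.9 ± 4.12 FPKM in GT, 44.5 ± 4.85 in GTD272 and 47.9 ± 4.69 in GTWT. Its partner Xrcc4 was at 4.50 ± 0.891 FPKM in GT, and the Ku subunit genes Xrcc5 and Xrcc6 at 4.01 ± 0.978 and 8.42 ± 0.173. The Lig4 transcript was thus well above those of its partners on this per-length scale in every library, at 38.2 FPKM or more against 9.74 or less. Among the Fanconi anaemia genes, Fancm, a DNA translocase, was at 6.43 ± 0.638 FPKM in GT and 6.50 ± 0.295 in GTWT, and Fancl, the ubiquitin ligase of the pathway, at 3.84 ± 1.00 and 3.78 ± 1.06. Its substrates were scarce, Fanci at 1.34 ± 0.296 FPKM in GT and Fancd2 at 1.00 ± 0.281, and the core subunit gene Fanca had 0.331 FPKM at most.

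Lig3, the ligase of single-strand break repair and of mitochondria, was at 13.99 ± 1.99 FPKM in GT and 14.5 ± 1.18 in GTWT (SD, n = 4), and its scaffold partner Xrcc1 at 11.3 ± 0.584 and 10.4 ± 1.505. Lig1, the replication ligase, was at 0.682 ± 0.248 FPKM in GT, the lowest of the 3 ligase genes. Parp1, which marks breaks with poly(ADP-ribose), was at 7.25 ± 1.31 FPKM in GT, 8.80 ± 0.742 in GTD272 and 8.68 ± 1.59 in GTWT, and Parp2 at 1.84 ± 0.375, 1.72 ± 0.900 and 2.57 ± 1.06. For nucleotide excision repair, the damage sensors Ddb1, Xpc and Ddb2 were at 59.5 ± 2.14, 33.5 ± 2.92 and 16.2 ± 2.44 FPKM in GT, and at 56.4 ± 4.88, 35.6 ± 2.61 and 15.1 ± 3.26 in GTWT. Xpa, which verifies the lesion, had a wide spread between libraries. Its FPKM was 2.85, 5.91, 4.09 and 1.38 in GT, 3.73, 6.11, 7.17 and 3.48 in GTD272 and 4.36, 6.55, 5.60 and 6.56 in GTWT. Its log2 difference of 0.66 in GTWT against GT was the largest of all members and did not pass (95% interval 0.05 to 1.28, limma adjusted p = 0.134); without GT replicate 2 it was 0.90 (0.0472). Ercc1, a subunit of the nuclease that cuts beside the lesion, was listed at 0 in GTD272 replicate 4 and GTWT replicate 3 and reached 2.34 FPKM in GT replicate 4.

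The comparison of GTD272 with GT asks the same after mRNA for the mutated protein, and it shares the GT libraries with the comparison above. Limma called 0 of 46 members, against 2.95% of all genes tested (1.41% higher, 1.54% lower). Xrcc2 and Rad17, 2 members, had an unadjusted p under 0.05, as did 19.0% of all genes, and the authors' deposited table calls 0 members, against 6.31%. The median difference was -0.03 on the log2 scale, against -0.01 for all genes, and the 95% interval lay within 0.5 of 0 on both sides for 40 members. Xrcc2 came nearest, at 38.5, 33.0, 32.8 and 35.1 FPKM in GT and 29.2, 32.4, 28.1 and 27.4 in GTD272. All GTD272 libraries were below all GT libraries (log2 difference -0.25, SE 0.07, limma adjusted p = 0.0879). Rad17 was at 37.3 ± 3.99 FPKM in GT, against 32.0 ± 2.49 in GTD272 (SD, n = 4), with a log2 difference of -0.21 (limma adjusted p = 0.190). The groups did not overlap for 3 members: all GTD272 libraries lay above GT for Rad50 (5.37% of all genes tested) and below GT for Bard1 and Xrcc2 (7.59%).

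The called members had been chosen for passing in GTWT against GT, so smaller differences elsewhere are expected from that choice alone. Over all genes the median size of a difference was 0.13 in GTD272 against GT and 0.17 in GTWT against GT. The called members of the first comparison had smaller differences here, without a call. For GTD272 against GT these were 0.10 for Hus1 (95% interval -0.07 to 0.27), -0.08 for Rad9a (-0.28 to 0.11), 0.15 for Rad50 (-0.05 to 0.34), 0.11 for Mdc1 (-0.14 to 0.35), -0.12 for Wrn (-0.34 to 0.10) and 0.04 for Rpa1 (-0.13 to 0.21).

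GTWT and GTD272, which were both injected, were compared directly to test whether these differences depended on the protein supplied. Of 46 members 1 fell and 0 rose, against 2.46% of all genes tested (1.84% lower, 0.625% higher), and 8 had an unadjusted p under 0.05, against 18.4% of all genes. The authors' deposited table calls 3 members, against 5.22%. The member called by limma was Hus1, at 21.5 ± 1.39 FPKM in GTWT and 28.1 ± 2.52 in GTD272 (SD, n = 4). Its mean in GTWT was 76.4% of that in GTD272, a log2 difference of -0.37 (SE 0.08, limma adjusted p = 0.0246), and the groups did not overlap. It no longer passed without GTD272 replicate 1 (adjusted p = 0.0651), 2 (0.0796) or 4 (0.0506) or GTWT replicate 1 (0.0550) or 4 (0.0674), nor with only the 2 groups compared (0.0755). For Mdc1 and Trp53bp1 every GTWT library lay above every GTD272 library too, but neither passed (log2 differences 0.30 and 0.38, adjusted p = 0.172 and 0.0858), whereas the authors' deposited table calls both (q = 0.0245 and 0.00189). Among all genes tested, 4.26% had every GTWT library above every GTD272 library and 5.93% below.

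For the other called members the difference between the injected groups was not shown. It was -0.20 for Rad9a (95% interval -0.40 to -0.01, limma adjusted p = 0.260), 0.18 for Rad50 (-0.01 to 0.37, 0.313), -0.22 for Wrn (-0.44 to -0.00, 0.270) and 0.23 for Rpa1 (0.06 to 0.40, 0.138). GTWT also held more Marf1 RNA than GTD272, as given above, so the amount of injected RNA and the mutation cannot be told apart.

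**Figure D4:**
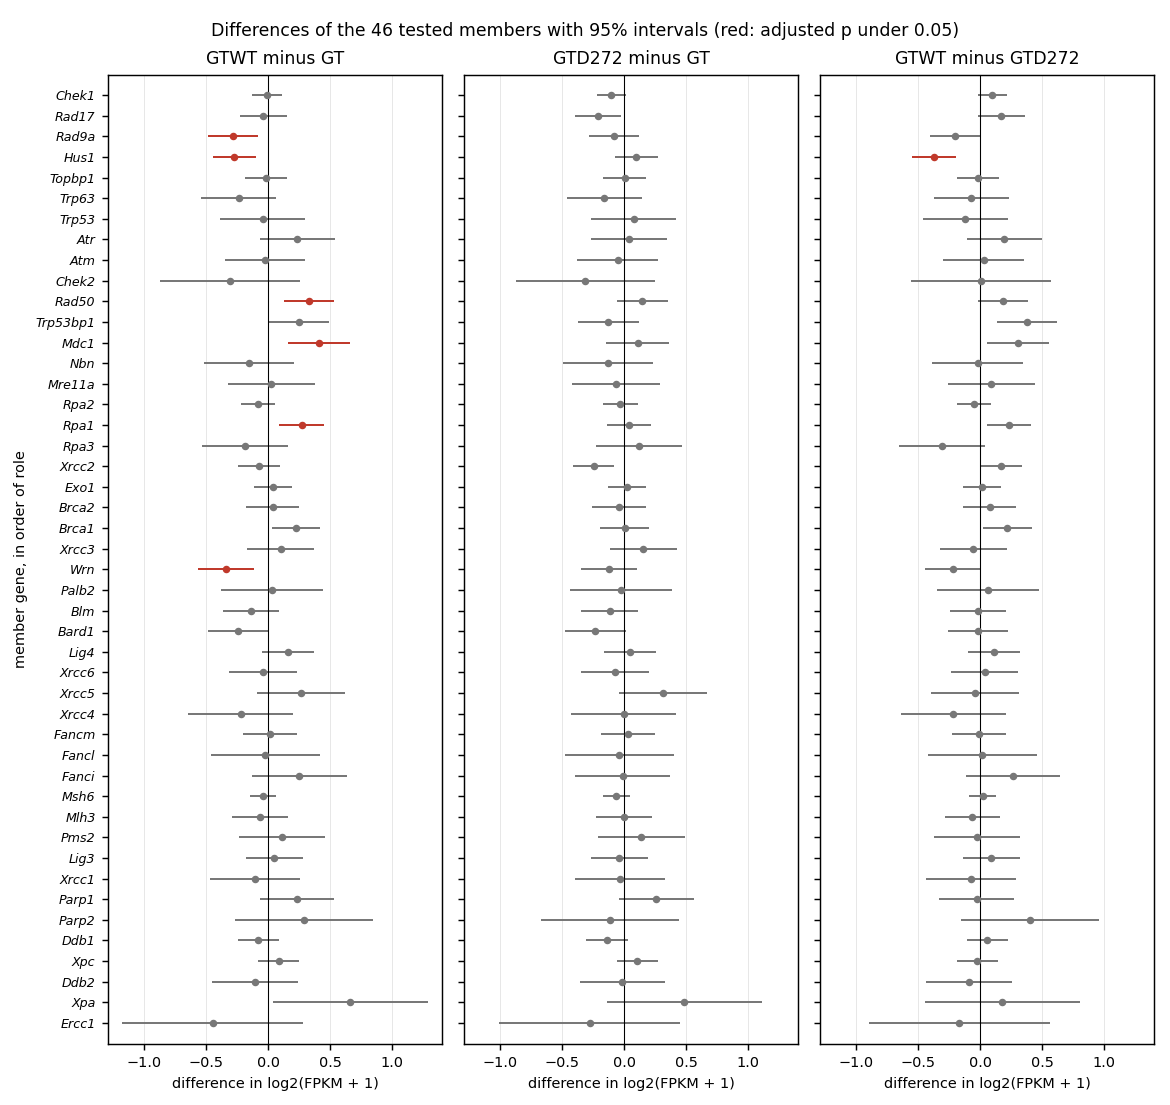
Difference in log2(FPKM + 1) of each of the 46 tested members, with its 95% interval, in the 3 comparisons; red marks an adjusted p under 0.05. There are 6 red members in GTWT minus GT, 0 in GTD272 minus GT and 1, Hus1, in GTWT minus GTD272, and the intervals are widest for the low genes Xpa, Ercc1, Chek2 and Parp2.

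Other genes of these pathways were taken from a list of 122 measured genes, of which 110 passed the filter. In GTWT against GT 6 of the 110 rose and 9 fell, or 13.6%, against the 16.6% of all genes given above. Of 26 further recombination and break-signalling genes 1 rose and 3 fell, where 6.14% of all genes tested rose and 10.5% fell. Rad51d was the one that rose (0.689 ± 0.227 to 1.75 ± 0.535 FPKM, SD, n = 4). The GT mean of Rad51d was under the FPKM of 1 used in the filter, so it passed that filter only with libraries of the injected groups. Under the alternatives other than leaving out a library, its log2 difference ran from 0.69 to 1.23. H2afx, the histone variant that is phosphorylated at breaks, fell from 121 ± 7.43 to 102 ± 3.17 FPKM, Rif1, which limits resection, from 64.4 ± 3.03 to 53.7 ± 5.10, and the nuclease scaffold Slx4 from 15.9 ± 1.59 to 12.6 ± 1.15. Of 9 further crosslink repair genes 2 fell, where 10.5% of all genes tested fell. Fancf, a subunit of the core complex, fell from 68.8 ± 4.15 to 41.4 ± 6.58 FPKM, a log2 difference of -0.73 (SE 0.11, limma adjusted p = 0.000906), more than any member, and Usp1, the enzyme that removes ubiquitin from FANCD2, from 96.9 ± 6.75 to 81.5 ± 6.11.

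Of 14 further genes listed for base excision and single-strand break repair 2 fell, where 10.5% of all genes tested fell. Tdp2, which frees ends from trapped topoisomerase, fell from 47.7 ± 2.86 to 35.9 ± 2.58 FPKM, and Parg, which removes poly(ADP-ribose), from 14.01 ± 0.764 to 10.99 ± 0.642. Of 16 further nucleotide excision genes 2 rose and 1 fell, where 6.14% of all genes tested rose and 10.5% fell. Rad23b, which stabilizes XPC, rose from 106 ± 5.33 to 130 ± 4.52 FPKM and Ercc3, a helicase of TFIIH, from 12.98 ± 1.69 to 16.5 ± 0.797, while the ubiquitin ligase gene Cul4b fell from 58.2 ± 2.21 to 49.7 ± 4.83. Of 20 checkpoint effectors and p53 targets 2 rose and 1 fell, where 6.14% of all genes tested rose and 10.5% fell. Cdkn1a rose from 1.24 ± 0.533 to 3.24 ± 1.61 FPKM and Ccng1 from 2.38 ± 0.260 to 3.62 ± 0.738, while Sesn1 fell from 9.14 ± 0.571 to 5.68 ± 1.04. In GTWT against GT limma called 0 of 5 further end-joining and 0 of 6 translesion genes, against 16.6% of all genes tested. None of these had an unadjusted p under 0.05 (30.9% of all genes), and the authors' deposited table calls 0 (18.6%).

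Fancf, Tdp2, Rad23b and Sesn1 kept their calls in GTWT against GT without any single library. Without GT replicate 1 the calls of Rad51d, Rif1, H2afx, Slx4, Usp1, Ercc3, Cul4b, Cdkn1a and Ccng1 were lost (adjusted p = 0.0509 to 0.0908). Without GT replicate 2 those of Parg, Cul4b, Cdkn1a and Ccng1 were lost (0.0514 to 0.113), without GT replicate 3 those of Rif1, Parg, Ercc3, Cul4b, Cdkn1a and Ccng1 (0.0512 to 0.0836), and without GT replicate 4 those of Slx4, Parg and Ccng1 (0.0518 to 0.0878). Leaving out GTWT replicate 1 ended those of Slx4, Parg, Ercc3, Cul4b and Cdkn1a (0.0646 to 0.0804), GTWT replicate 2 those of Rad51d, Rif1, Parg, Ercc3, Cul4b and Ccng1 (0.0506 to 0.128), GTWT replicate 3 those of Slx4 and Ccng1 (0.0705 and 0.0995) and GTWT replicate 4 those of Rif1, Usp1, Parg, Ercc3, Cul4b, Cdkn1a and Ccng1 (0.0531 to 0.0814). The call of Ccng1 was also lost on leaving out each GTD272 library in turn (0.0503 to 0.0562). With only the 2 groups compared, Slx4, Ercc3, Cul4b and Ccng1 no longer passed (0.0507 to 0.0748). Without the filter Cdkn1a (0.0549) and Ccng1 (0.0779) did not pass, nor did Cul4b after quantile normalization (0.0644).

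In GTD272 against GT, 3 of the 110 other genes were called, or 2.73%, against 2.95% of all genes tested. Parg and Sesn1 fell to 10.6 ± 1.35 and 6.11 ± 0.599 FPKM, and Ccng1 rose to 4.10 ± 0.493 (SD, n = 4; log2 differences -0.38, -0.51 and 0.59, limma adjusted p = 0.0466, 0.0396 and 0.0406). None of the 3 calls survived leaving out any GT library, GTD272 replicate 1 or GTD272 replicate 3 (adjusted p = 0.0656 to 0.125), or dropping the filter on low values (0.0676 to 0.0714). That of Parg was also lost after rescaling by median ratios (0.0514) and with only the 2 groups compared (0.0714). Those of Parg and Ccng1 were lost without GTD272 replicate 2 (0.0622 and 0.0711), those of Sesn1 and Ccng1 without GTD272 replicate 4 (0.0690 to 0.0890), those of Parg and Sesn1 without GTWT replicate 1 or 4 (0.0506 to 0.0584) and that of Parg without GTWT replicate 2 (0.0551). Between the injected groups 2 of the 110 were called, or 1.82%, against 2.46% of all genes tested. Fancf was lower in GTWT, at 41.4 ± 6.58 against 63.9 ± 8.01 FPKM (log2 difference -0.62, SE 0.11, adjusted p = 0.0109). Rnf168, the ubiquitin ligase that marks chromatin at breaks, was higher, at 66.8 ± 0.927 against 56.2 ± 1.29 (0.25, SE 0.05, adjusted p = 0.0201). Both calls held without any single library, and that of Rnf168 was lost with only these groups in the fit (0.0506). The groups did not overlap for either gene.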

How the data were processed

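RNA of 12 libraries was measured in 3 groups of 4, read from the sample titles. The authors used TopHat2 2.0.13 to align reads to mm10 and computed FPKM with Cufflinks 2.2.1, per the submitters' processing notes. The p-values and the q-values of the deposited table are those of Cuffdiff, per the labels. The gene annotation was not stated. FPKM carries no counts. Relative depth came from 13143 pairs of low values, of which 82.0% had a ratio of whole numbers up to 5 (tolerance 0.02, log2).

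Header names stood 1 column left of their values and were realigned. Tested genes had an FPKM of 1 or more in 4 or more libraries. They were fitted with limma 3.58.1 in R 4.3.3 on log2(FPKM + 1) with a mean-variance trend, in 1 model over all libraries, with Benjamini-Hochberg adjustment over 11687 genes. Fold changes on that scale understate those of low genes. The fit was tested on simulated data with 200 changed genes. These were drawn above a minimum level, so recovery of the lowest genes was not simulated. They were also fewer than the 1940 genes called in GTWT against GT. The fit recovered 57% to 61% of changes of 0.5 on the log2 scale and 88% to 91% of changes of 1. Smaller changes, like those of the called members, were not simulated. Members called in at least 1 comparison are given by library, others by role, and called genes of the other repair lists are named, except 1 that is counted but not reported here. The members and lists were chosen with earlier results of these data known, and 2 listed symbols had no row. Alternatives were another pseudocount, filter, scaling, set of samples, a replicate block and leaving out each library. Loci are those of the table (mm10).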

Additional observations from a re-analysis of the deposited data

Results flagged for a closer look

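In 11 of 147 groups of 4 libraries, or 7.48%, 1 library stood apart from the other 3 by more than Dixon's test allows at the 95% level, and chance alone flags about 1 in 20 groups. These groups belonged to 11 different members. Among called members, Rpa1 was at 45.4 FPKM in GT replicate 2 against 38.6 to 39.4 in the other GT libraries, and Rad9a at 25.9 in GTD272 replicate 4 against 29.1 to 29.4. In GT, Rad17 was at 31.3 in replicate 3 (others 38.6 to 39.7), Trp53bp1 at 6.93 in replicate 4 (others 9.10 to 9.50) and Fanca at 0.0721 in replicate 2 (others listed at 0). The flag of Fanca, counted among the 11, was fixed by those zeros, as any value above 0 would be flagged. In GTD272, Mlh3 was at 10.4 in replicate 4 (others 8.902 to 9.13). In GTWT, Palb2 was at 13.3 (others 6.02 to 6.82) and Brca2 at 21.4 (others 18.8 to 19.2) in replicate 3, Lig3 at 12.7 (others 14.9 to 15.3) and Parp1 at 11.05 (others 7.67 to 8.19) in replicate 4, and Fancm at 6.94 (others 6.34 to 6.36) in replicate 1.

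For 3 genes named in the report, the change after wild type mRNA differed from that after mutated mRNA in the direct test of the injected groups. This is the test given above, not a further one. It called 1 of 46 members and 2 of 110 other genes, against 2.46% of all genes tested. The call of Hus1 was lost in 5 of 12 runs without 1 library and with only the 2 groups compared. Hus1 differed by -0.37 on the log2 scale (-0.27 against GT in GTWT and 0.10 in GTD272, limma adjusted p = 0.0246), Fancf by -0.62 (-0.73 and -0.11, 0.0109) and Rnf168 by 0.25 (0.14 and -0.11, 0.0201).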

How the results depend on the processing

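No called difference of a member or other repair gene changed direction under any alternative run, and the counts of 0 member calls in GTD272 against GT, and of 0 rises in GTWT against GTD272, held under all 19. A kept direction was partly fixed in advance. Another filter, the replicate block, using only the 2 groups or leaving out a library of the third group leaves the difference itself unchanged. Each run without 1 library also shares most of its libraries with the reported fit. Counts of member calls were unsteady. In GTWT against GT the 3 falls became 1 without a filter on low values, 1 after quantile normalization, 1 with only the 2 groups compared and 0 with the replicate block, while the 3 rises ran from 2 to 3. Over all genes the 1223 falls there became 1015, 976, 1125 and 1091, in the same order, and the 717 rises ran from 608 to 984. For members, leaving out 1 library gave 0 to 4 rises and 0 to 3 falls there. Without GT replicate 1, the shallowest library, all 6 member calls of that comparison were lost. The 1 fall in GTWT against GTD272 became 0 with only the 2 groups compared, 0 with the replicate block and 0 to 1 without 1 library. Over all genes, without the filter the 165 rises and 180 falls of GTD272 against GT became 102 and 107, and the 215 falls of GTWT against GTD272 became 125. With the replicate block those 165 and 180 became 99 and 95, and the 73 rises of GTWT against GTD272 became 38. These 73 became 144 after quantile normalization, and 27 (with 97 of the 215 falls) with only the 2 groups compared. Without 1 library the counts over all genes were 482 to 726 rises and 844 to 1217 falls in GTWT against GT, 61 to 168 and 50 to 209 in GTD272 against GT, and 29 to 70 and 84 to 249 in GTWT against GTD272. The replicate block ended the calls of Hus1 (adjusted p = 0.0519), Rad9a (0.0567), Wrn (0.0562), Parg (0.0505), Ercc3 (0.0511), Cul4b (0.0561) and Ccng1 (0.0847) in GTWT against GT, of Parg, Sesn1 and Ccng1 in GTD272 against GT (0.0766 to 0.0831) and of Hus1 in GTWT against GTD272 (0.0562). The cause of these shifts was not tested. Replicate numbers share only a number: same-numbered libraries of different groups had deviations correlated at -0.22 to 0.21, with 2 of 12 pairs above 0.1. Without counts, precision is limited by the 4 libraries per group, and the 3 members that missed an FPKM of 1 in at least 4 libraries could not be tested.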
